A study of Mus musculus with 11 samples.

Results

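The NRF2 antioxidant genes are a set of 10 genes of the mouse oxidative stress response: Nfe2l2, Keap1, Nqo1, Hmox1, Gclc, Gclm, Txnrd1, Slc7a11, Srxn1 and Gsr. They were taken by gene symbol from a count table of 21684 genes, and all 10 were present once and passed the filter on low counts, as 10 of 13332 tested genes. The libraries came from NIH/3T3 cells, an established mouse embryonic fibroblast line, kept without serum for 24 h. The 4 genotypes were wild type (WT, 2 libraries) and the knockout lines Xap5 KO, Nono KO and Sox5 KO (3 libraries each), and each knockout is compared with WT and with the others. All 4 groups share the cell line and the serum starvation, and the labels give no other agent or allele. The labels do not say how the knockouts were made, how many clones stand behind each line, or whether replicates were separate cultures, so the p-values measure the spread between these libraries, which may be technical.

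NRF2, the protein made from Nfe2l2, is a transcription factor that binds antioxidant response elements together with a small MAF protein. KEAP1 holds NRF2 in the cytoplasm and delivers it to a CUL3 ubiquitin ligase, so that the factor is degraded in unstressed cells and accumulates when oxidants or electrophiles modify KEAP1. Because this control acts on the protein, the RNA level of Nfe2l2 does not report NRF2 activity. The target genes make glutathione (Slc7a11, Gclc, Gclm), recycle it (Gsr), run the thioredoxin and peroxiredoxin cycle (Txnrd1, Srxn1), reduce quinones (Nqo1) and break down heme (Hmox1).

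Promoter matches to the motif through which NRF2 acts are shown first. RefSeq promoter windows of build GRCm38.p6, running from 250 bases before to 50 bases after a transcription start, were matched for 7 of the 10 genes, with 3 windows for Txnrd1. Hmox1, Gclc and Gsr had no entry. Both strands were searched for the core TGACNNNGC, for TGACTCAGC, which also matches the core, for TGAGTCAGC, which does not, and for TGACTCA, the site of AP-1 factors, which lies inside TGACTCAGC and whose reverse complement lies inside TGAGTCAGC. The lines below print the matches within 29 bases each, 5′ to 3′ on the gene's strand, with the matched letters in capitals. In the lines for Gclm, for Txnrd1 and for the downstream site of Srxn1, the core reads on the other strand, as does TGACTCA in its own line.

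Nfe2l2, chr2:75704885-75704913, minus strand, motif at -240 to -232 from the start: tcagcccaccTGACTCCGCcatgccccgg
Gclm, chr3:122245413-122245441, plus strand, motif at -134 to -126: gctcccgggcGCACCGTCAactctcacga
Txnrd1, chr10:82859104-82859132, plus strand, motif at -92 to -84 from 1 of its 3 starts: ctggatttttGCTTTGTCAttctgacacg
Srxn1, chr2:152105469-152105497, plus strand, motif at -45 to -37: aaattcacccTGAGTCAGCggccgggcgc
Srxn1, chr2:152105411-152105439, plus strand, AP-1 motif at -102 to -96: ctcggagggccTGAGTCAccacgctgtgc
Srxn1, chr2:152105542-152105570, plus strand, motif at 29 to 37, after the start: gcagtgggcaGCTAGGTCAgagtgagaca

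The core TGACNNNGC was found in 4 of the 9 windows of these genes and in 12.4% of all 32851 windows of 300 bases. TGAGTCAGC was found once, in Srxn1, against 0.414% of all windows. TGACTCAGC was in none of the 9 windows, against 0.454% of all. TGACTCA was in 1 window, that of Srxn1, which holds it at 2 places, 1 of them within its TGAGTCAGC, against 5.2% of all. A match is a description of the letters in this window, and Nqo1, Slc7a11 and Keap1 held none of these letters there.

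Library totals ran from 30205878 to 43498383 counts, and the 10 genes had between 367 and 12576 counts in any library, so counting error was small for all of them. Mitochondrial genes took 6.20% to 6.28% of the counts in WT, 7.89% to 10.3% in Xap5 KO, 7.11% to 7.98% in Nono KO and 6.06% to 6.92% in Sox5 KO. The 9 tested genes of the Y chromosome summed to 8020 to 8978 counts in the WT libraries, 0 in each Xap5 KO library, 2 to 16 in Nono KO and 0 to 2 in Sox5 KO. WT thus differed from all 3 knockout lines in more than the targeted gene, and in every comparison against WT this difference and the knockout cannot be told apart. Fam50a, the mouse symbol of the gene labelled Xap5, and Nono were each lowest in the line named for their knockout, at 7.49 to 7.91 CPM (counts scaled to the library size) and 27.6 to 34.0 CPM. Sox5 was at 12.6 to 13.9 CPM in Sox5 KO, 11.9 to 15.02 CPM in Xap5 KO, 7.01 to 8.76 CPM in Nono KO and 45.9 to 49.7 CPM in WT. All 8 fibroblast markers were above 1 CPM in every genotype, with a summed level of 9772 to 10310 CPM in WT and Xap5 KO libraries, 26370 to 31870 CPM in Nono KO and 13400 to 13880 CPM in Sox5 KO. The 6 epithelial markers summed to at most 0.372 CPM. The 6 macrophage markers summed to 7.39 to 15.7 CPM, with Itgam at most 3 counts in every library. The 6 endothelial markers summed to 13.5 to 15.7 CPM in WT, 33.5 to 35.7 CPM in Xap5 KO, 2.96 to 4.81 CPM in Nono KO and 7.92 to 10.8 CPM in Sox5 KO, with Emcn at most 3 counts in every library. The part of these markers in the results was not tested. In bulk RNA, fewer cells of a type and less RNA per cell cannot be told apart.

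Most of the set rose in Sox5 KO. Nqo1, Hmox1, Gclc and Txnrd1 fell in Nono KO, where a smaller fall of Nfe2l2 was lost under several alternatives. In Xap5 KO as many members were called higher as lower. This balance is not firm, since the rise of Nfe2l2 and the falls of Txnrd1 and Gsr there were lost under some alternatives. A gene was called when edgeR's quasi-likelihood test gave a Benjamini-Hochberg adjusted p under 0.05 over all tested genes. In Sox5 KO, 7 of the 10 genes were called against WT, all 7 higher and 0 lower, where 60.9% of all tested genes were called, 30.6% higher and 30.3% lower. In Nono KO, 7 of 10 were called, 2 higher and 5 lower, against 48.6% of all genes, 23.5% higher and 25.1% lower. In Xap5 KO, 6 of 10 were called, 3 higher and 3 lower, against 45.5% of all genes, 23.2% higher and 22.3% lower. The median log2 fold change of the 10 genes was 0.64 in Sox5 KO, -0.09 in Nono KO and 0.18 in Xap5 KO, and that of all tested genes was -0.006, -0.02 and 0.003. The 3 comparisons share the 2 WT libraries. Each of the 10 genes was called in at least 1 knockout, as were 80.3% of all tested genes, and Nfe2l2 and Hmox1 were called in all 3, as were 22.3% of all tested genes. The fitted change of every member against WT was under 2-fold in each knockout.

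**Figure D1:**
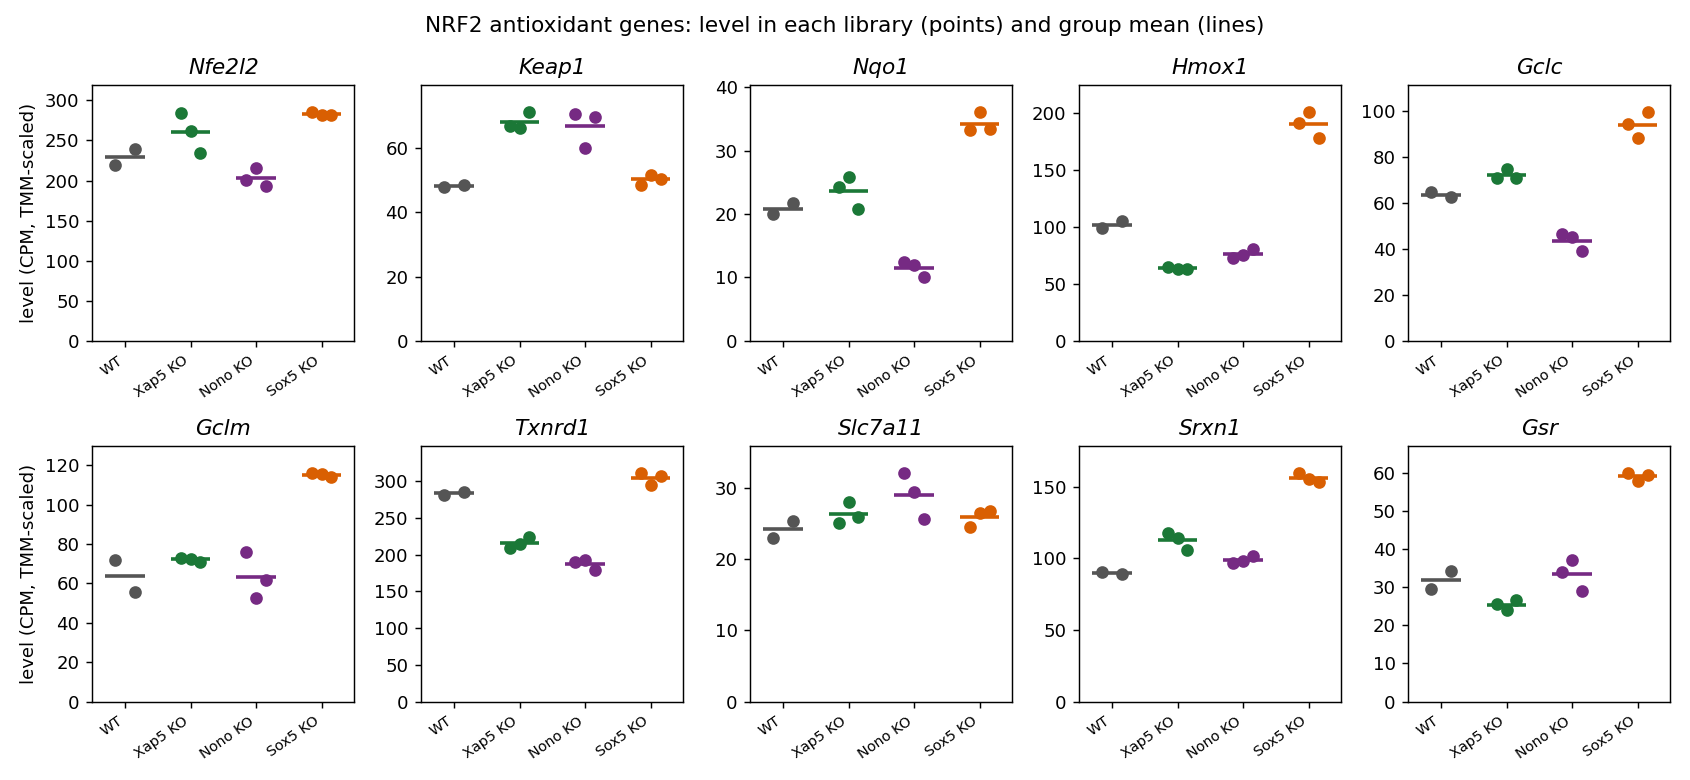
Level of each of the 10 genes in every library, in CPM on a linear axis from 0, by genotype, with points for libraries and lines for group means. Sox5 KO is the highest group for 8 genes, and Nono KO is the lowest group for Nfe2l2, Nqo1, Gclc, Gclm and Txnrd1.

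Nfe2l2, which encodes NRF2, was one of the more abundant members. WT libraries held 219.7 and 238.9 CPM, Sox5 KO libraries 285.1, 281.9 and 281.4 CPM, those of Nono KO 200.1, 215.7 and 193.4 CPM, and those of Xap5 KO 284.6, 261.3 and 234.4 CPM. The Sox5 KO libraries all lay above WT and the Nono KO libraries all below, while 1 Xap5 KO library fell within the WT range. The rise in Sox5 KO was 1.23-fold (log2 fold change 0.30, SE 0.0720, adjusted p = 0.00103 by edgeR). The values in Xap5 KO (log2 fold change 0.18, SE 0.0717, adjusted p = 0.0440 by edgeR) and Nono KO (-0.175, SE 0.0712, adjusted p = 0.0474) were called by a narrow margin. In the 11 fits that each left out 1 library, the call was lost in 7 for Xap5 KO and in 8 for Nono KO. With DESeq2 neither was called.

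Keap1, the inhibitor of NRF2, rose in Xap5 KO and Nono KO. WT libraries held 48.0 and 48.7 CPM, Sox5 KO libraries 48.6, 51.8 and 50.5 CPM, those of Nono KO 70.5, 60.2 and 69.7 CPM, and those of Xap5 KO 67.0, 66.3 and 71.2 CPM. The Sox5 KO and WT ranges overlapped, and every library of the other knockouts lay above WT. The rise was 1.41-fold in Xap5 KO (log2 fold change 0.50, SE 0.0802, adjusted p = 3.15e-05 by edgeR) and 1.38-fold in Nono KO (0.47, SE 0.0802, adjusted p = 5.45e-05). In Sox5 KO the difference was 0.06 (SE 0.0800, adjusted p = 0.549 by edgeR) and was not called. In the GENCODE M21 annotation, 510 bases of the Keap1 exons overlap Gm16754 on the opposite strand, so the count is uncertain if strand was not used.

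Nqo1, the quinone reductase often used as a readout of NRF2, changed in opposite directions in Nono KO and Sox5 KO. WT libraries held 20.1 and 21.7 CPM, Sox5 KO libraries 33.3, 36.1 and 33.5 CPM, those of Nono KO 12.5, 12.01 and 10.1 CPM, and those of Xap5 KO 24.3, 25.9 and 20.7 CPM. Nono KO and Sox5 KO did not overlap WT or each other, and Xap5 KO overlapped WT. Nqo1 fell to 55.3% of its WT mean in Nono KO (log2 fold change -0.85, SE 0.116, adjusted p = 3.08e-06 by edgeR) and rose 1.64-fold in Sox5 KO (0.715, SE 0.117, adjusted p = 1.83e-05). In Xap5 KO the difference of 0.18 was not called (SE 0.115, adjusted p = 0.216 by edgeR).

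Hmox1, the inducible heme oxygenase, was the only member called in all 6 pairs of genotypes. The share of all tested genes called in all 6 was not counted. Between Xap5 KO and Nono KO the call was lost with chromosome medians taken out of the fit (-0.037, adjusted p = 0.646 by edgeR). WT libraries held 98.5 and 105.0 CPM, Sox5 KO libraries 190.8, 200.3 and 178.1 CPM, those of Nono KO 72.8, 75.4 and 80.2 CPM, and those of Xap5 KO 65.0, 63.1 and 62.9 CPM. No library of a genotype overlapped those of another. It rose 1.86-fold in Sox5 KO (log2 fold change 0.90, SE 0.0668, adjusted p = 2.1e-10 by edgeR). It fell to 62.6% of the WT mean in Xap5 KO (-0.68, SE 0.0651, adjusted p = 2.94e-08 by edgeR) and to 74.9% in Nono KO (-0.42, SE 0.0651, adjusted p = 1.71e-05).

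Slc7a11 encodes the cystine importer of system xc-. WT libraries held 22.9 and 25.4 CPM, Sox5 KO libraries 24.5, 26.5 and 26.8 CPM, those of Nono KO 32.1, 29.5 and 25.7 CPM, and those of Xap5 KO 25.0, 28.0 and 25.9 CPM. It was the flattest member, with the highest group mean 1.2 times the lowest. Its difference of 0.27 in Nono KO was called (SE 0.106, adjusted p = 0.0427 by edgeR) but lost the call in 6 of the 11 fits that left out 1 library. Differences of 0.10 in Sox5 KO and 0.12 in Xap5 KO were not called (adjusted p = 0.43 and 0.37 by edgeR).

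Gclc encodes the catalytic subunit of the ligase that starts glutathione synthesis. WT libraries held 64.4 and 62.5 CPM, Sox5 KO libraries 94.1, 87.9 and 99.2 CPM, those of Nono KO 46.4, 45.0 and 39.0 CPM, and those of Xap5 KO 70.8, 74.6 and 70.7 CPM. All 4 genotypes were apart from each other. It rose 1.48-fold in Sox5 KO (log2 fold change 0.56, SE 0.0802, adjusted p = 3.33e-06 by edgeR) and fell to 68.5% of WT in Nono KO (-0.55, SE 0.0791, adjusted p = 6.9e-06). The difference of 0.18 in Xap5 KO was not called (SE 0.0794, adjusted p = 0.0681 by edgeR).

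Gclm, the modifier subunit of the same ligase, varied more between replicates than Gclc in WT and Nono KO, and less in Xap5 KO and Sox5 KO. WT libraries held 72.0 and 55.4 CPM, Sox5 KO libraries 116.0, 115.5 and 113.8 CPM, those of Nono KO 75.8, 52.5 and 61.5 CPM, and those of Xap5 KO 72.9, 72.6 and 71.1 CPM. Only the Sox5 KO libraries lay outside the WT range in all 3 replicates. The rise there was 1.81-fold (log2 fold change 0.85, SE 0.135, adjusted p = 0.000136 by edgeR). Differences of 0.18 in Xap5 KO and -0.009 in Nono KO were not called (adjusted p = 0.301 and 0.968 by edgeR). In Nono KO the values of the catalytic and the modifier subunit were thus -0.55 (called) and -0.009 (not called), and the difference between the subunits was not tested. Gclm exons overlap Gm17494 on the opposite strand by 296 bases and Gm6061 on the same strand by 244 bases, so its count is uncertain to that extent.

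Gsr encodes the glutathione reductase. WT libraries held 29.5 and 34.3 CPM, Sox5 KO libraries 60.1, 58.0 and 59.7 CPM, those of Nono KO 34.0, 37.2 and 29 CPM, and those of Xap5 KO 25.6, 24.1 and 26.8 CPM. Sox5 KO stood far above and Xap5 KO below all WT libraries, and Nono KO overlapped WT. It rose 1.86-fold in Sox5 KO (log2 fold change 0.89, SE 0.102, adjusted p = 1.52e-07 by edgeR) and fell by 0.32 on the log2 scale in Xap5 KO (SE 0.100, adjusted p = 0.0118 by edgeR). Without WT replicate 2 the value in Xap5 KO was -0.22 and was not called. The value of 0.07 in Nono KO was not called (adjusted p = 0.619 by edgeR).

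Txnrd1 encodes the cytosolic thioredoxin reductase. WT libraries held 280.8 and 285.4 CPM, Sox5 KO libraries 310.8, 294.3 and 307.0 CPM, those of Nono KO 189.4, 192.2 and 179.2 CPM, and those of Xap5 KO 208.4, 214.5 and 223.5 CPM. Xap5 KO and Nono KO lay below WT in every library. It fell to 66.0% of WT in Nono KO (log2 fold change -0.60, SE 0.0565, adjusted p = 1.58e-08 by edgeR) and to 76.1% in Xap5 KO (-0.39, SE 0.0566, adjusted p = 7.37e-06). In Sox5 KO all 3 libraries were above WT, but the difference of 0.10 was not called (SE 0.0571, adjusted p = 0.126 by edgeR).

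Srxn1 encodes sulfiredoxin, which repairs over-oxidised peroxiredoxins. WT libraries held 90.8 and 89.0 CPM, Sox5 KO libraries 159.7, 155.6 and 153.3 CPM, those of Nono KO 96.9, 98.6 and 101.5 CPM, and those of Xap5 KO 118.0, 114.1 and 105.8 CPM. Its libraries were above WT in every knockout, in the order Nono KO, Xap5 KO and Sox5 KO. It rose 1.74-fold in Sox5 KO (log2 fold change 0.80, SE 0.0622, adjusted p = 4.74e-10 by edgeR) and 1.25-fold in Xap5 KO (0.33, SE 0.0614, adjusted p = 0.000183). The value of 0.14 in Nono KO was not called (SE 0.0612, adjusted p = 0.0669 by edgeR) but lay close to the threshold. It was called with DESeq2 (0.153, adjusted p = 0.0387) and in the pairwise fit (0.161, adjusted p = 0.033 by edgeR), and it was -0.025 with library totals. This gene held the TGAGTCAGC match printed above.

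**Figure D2:**
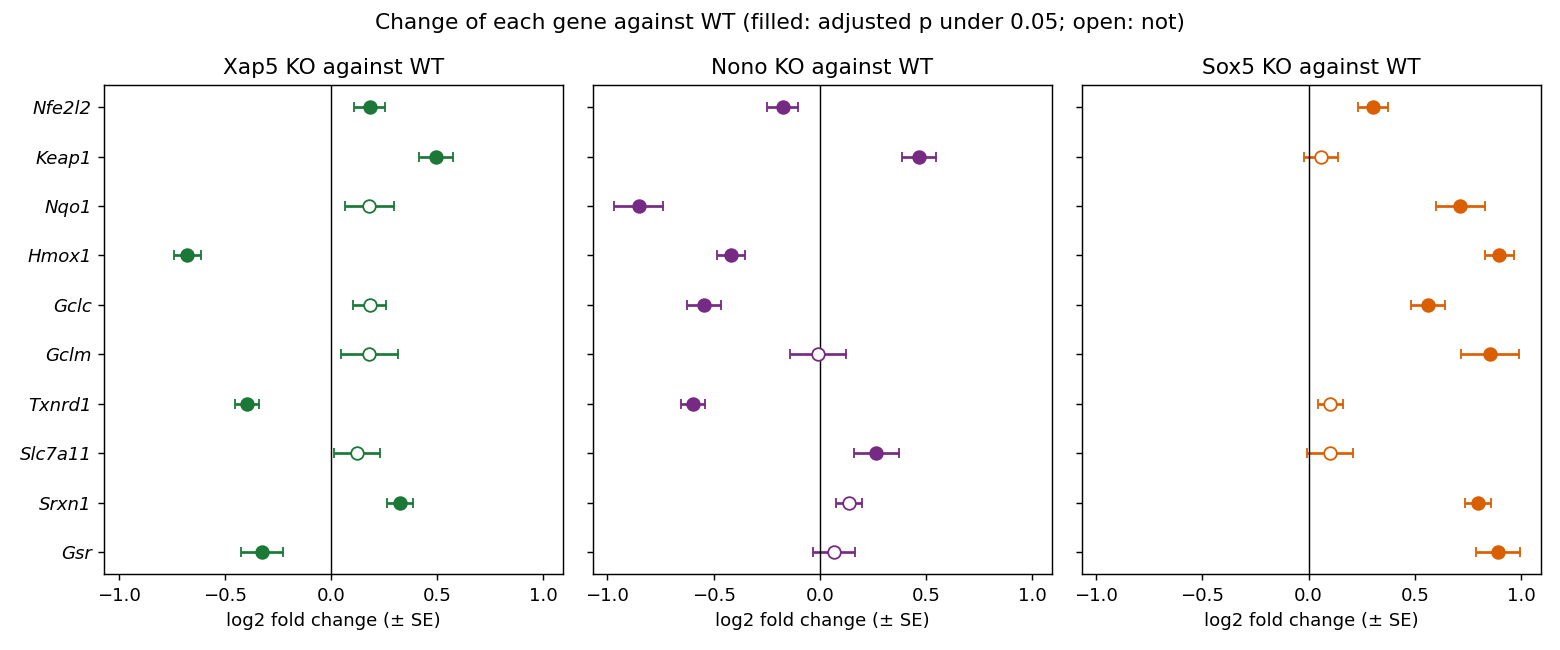
Log2 fold change of each gene against WT with its SE, for the 3 knockouts, filled where the adjusted p was under 0.05 and open where not. In Sox5 KO all 7 filled points lie to the right of 0, and in Nono KO 5 lie to the left and 2 to the right.

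Levels of different genes are comparable only per length. On CPM per kilobase of exon in WT, Nfe2l2 (60.4) and Hmox1 (58.1) were highest, followed by Txnrd1 (40.0) and Srxn1 (31.9). The length here is the union of all annotated exons, and the order of Hmox1 and Txnrd1 depends on that choice. Txnrd1 has 7086 bases of exon but a longest transcript of 3622 bases, and Hmox1 has 1751 and 1569. Gclc stood at 16.9, Nqo1 at 13.4, Gsr at 11.6, Keap1 at 10.3 and Gclm at 10.1 CPM per kilobase. Slc7a11 was lowest at 1.74 CPM per kilobase, with 13922 bases of annotated exon. In Sox5 KO the order of the leading genes changed, with Hmox1 at 108 and Nfe2l2 at 74.5 CPM per kilobase.

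The knockouts were also compared with each other. Against Sox5 KO, 9 of the 10 genes were called in Nono KO, 1 higher and 8 lower, where 63.5% of all tested genes were called, 30.9% higher and 32.6% lower. Against Sox5 KO, 8 genes were called in Xap5 KO, 1 higher and 7 lower, with 61.6% of all tested genes called, 31.1% higher and 30.4% lower. The gene higher than in Sox5 KO was Keap1 in both cases, by 0.41 in Nono KO and by 0.44 in Xap5 KO on the log2 scale. With chromosome medians taken out of the fit, as described below, the value in Nono KO was 0.162 and not called (adjusted p = 0.0561 by edgeR). Between Xap5 KO and Nono KO, 7 genes were called, 5 higher and 2 lower in Xap5 KO, with 53.0% of all tested genes called, 27.1% higher and 25.9% lower. The median log2 fold change of the 10 genes was -0.76 for Nono KO against Sox5 KO, -0.48 for Xap5 KO against Sox5 KO and 0.19 for Xap5 KO against Nono KO.

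These comparisons held the largest changes of the set. Hmox1 was 2.98-fold higher in Sox5 KO than in Xap5 KO (log2 fold change of Xap5 KO against Sox5 KO -1.57, SE 0.0599, adjusted p = 8.37e-15 by edgeR). Nqo1 was 2.96-fold higher in Sox5 KO than in Nono KO (log2 fold change of Nono KO against Sox5 KO -1.57, SE 0.106, adjusted p = 4.4e-11 by edgeR). Nqo1 was also 2.05-fold higher in Xap5 KO than in Nono KO (1.03, SE 0.106, adjusted p = 4.93e-08 by edgeR), and Gclc was 1.66-fold higher (0.73, SE 0.0717, adjusted p = 2.76e-08). The genes lower in Xap5 KO than in Nono KO were Gsr (-0.39, SE 0.0904, adjusted p = 0.00103 by edgeR) and Hmox1 (-0.26, SE 0.0593, adjusted p = 0.000955). Neither was called with chromosome medians taken out of the fit, as described below. Gsr was then at -0.169 and Hmox1 at -0.037 (adjusted p = 0.135 and 0.646 by edgeR). Pairs of knockouts that were not called were Sox5 KO and Xap5 KO for Nfe2l2 (adjusted p = 0.108 by edgeR), Xap5 KO and Nono KO for Keap1 (0.752) and Xap5 KO and Nono KO for Gclm (0.204). Of the 11 fits that left out 1 library, 1 called Nfe2l2 (-0.196, without Xap5 KO replicate 1) and 1 called Gclm (0.341, without Nono KO replicate 1). Keap1 was called with chromosome medians taken out (0.26, adjusted p = 0.0045 by edgeR). For Slc7a11 no pair of knockouts was called.

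Whole chromosomes and transcript length classes shifted with genotype in these libraries, and the values of the 10 genes are given beside those shifts, whose cause was not tested. Nqo1, Hmox1 and Gsr lie on chromosome 8, whose 715 tested genes had a median log2 fold change of 0.24 in Sox5 KO, -0.13 in Nono KO and -0.35 in Xap5 KO. In the same order, the medians were -0.32, -0.14 and -0.46 on chromosome 10, which holds Txnrd1. Keap1 and Gclc lie on chromosome 9, with medians of 0.10, 0.35 and 0.12. Nfe2l2 and Srxn1 lie on chromosome 2, with medians of 0.14, 0.005 and 0.13, and Gclm and Slc7a11 on chromosome 3, with medians of -0.22, 0.08 and -0.01.

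With the median of each chromosome taken out of the fit, an alternative chosen after the data had been seen, the fall of Hmox1 in Xap5 KO was -0.33 and still called. Txnrd1 and Gsr in Xap5 KO were then at 0.07 and 0.02 and not called, and Nqo1 there was at 0.53 and called. Keap1 in Nono KO was at 0.12 and not called, while Gclc on the same chromosome was at -0.89. In Sox5 KO, Hmox1, Gsr and Srxn1 were at 0.66 each, Gclm at 1.07, Gclc at 0.46 and Nqo1 at 0.48, all called, and Txnrd1 (0.43) and Slc7a11 (0.32) were called as well. Nfe2l2 was not called in Sox5 KO (0.17). The counts of called genes were 3 higher and 1 lower in Xap5 KO, 0 higher and 5 lower in Nono KO, and 8 higher and 0 lower in Sox5 KO. Under this setting 38.8%, 44.7% and 57.9% of all tested genes were called, so the counts in Xap5 KO and Nono KO were near that share.

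The medians of length classes lay farthest apart in Sox5 KO. There the class of shortest genes, 1 of 4 of like size, with longest transcripts of 204 to 2196 bases, had a median log2 fold change of 0.42, and the class of longest genes, from 4810 bases, had -0.41. The same medians were 0.08 and -0.05 in Xap5 KO and 0.09 and -0.10 in Nono KO. Nqo1 and Hmox1 have short transcripts of 1553 and 1569 bases, and Slc7a11 (9223 bases) and Gclm (5589 bases) long ones. With the trend on transcript length and GC content taken out, likewise an alternative chosen after the data had been seen, Nqo1 had a value of 0.26 in Sox5 KO (adjusted p = 0.0616 by edgeR) and Nfe2l2 had 0.08, and neither was called. Hmox1 (0.47), Gsr (0.71), Srxn1 (0.67), Gclc (0.52) and Gclm (1.18) stayed called, and Slc7a11 (0.73) and Keap1 (0.22) were called in addition. The falls in Nono KO were called under this setting too, at -1.06 for Nqo1, -0.58 for Gclc, -0.57 for Txnrd1 and -0.51 for Hmox1.

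**Figure D3:**
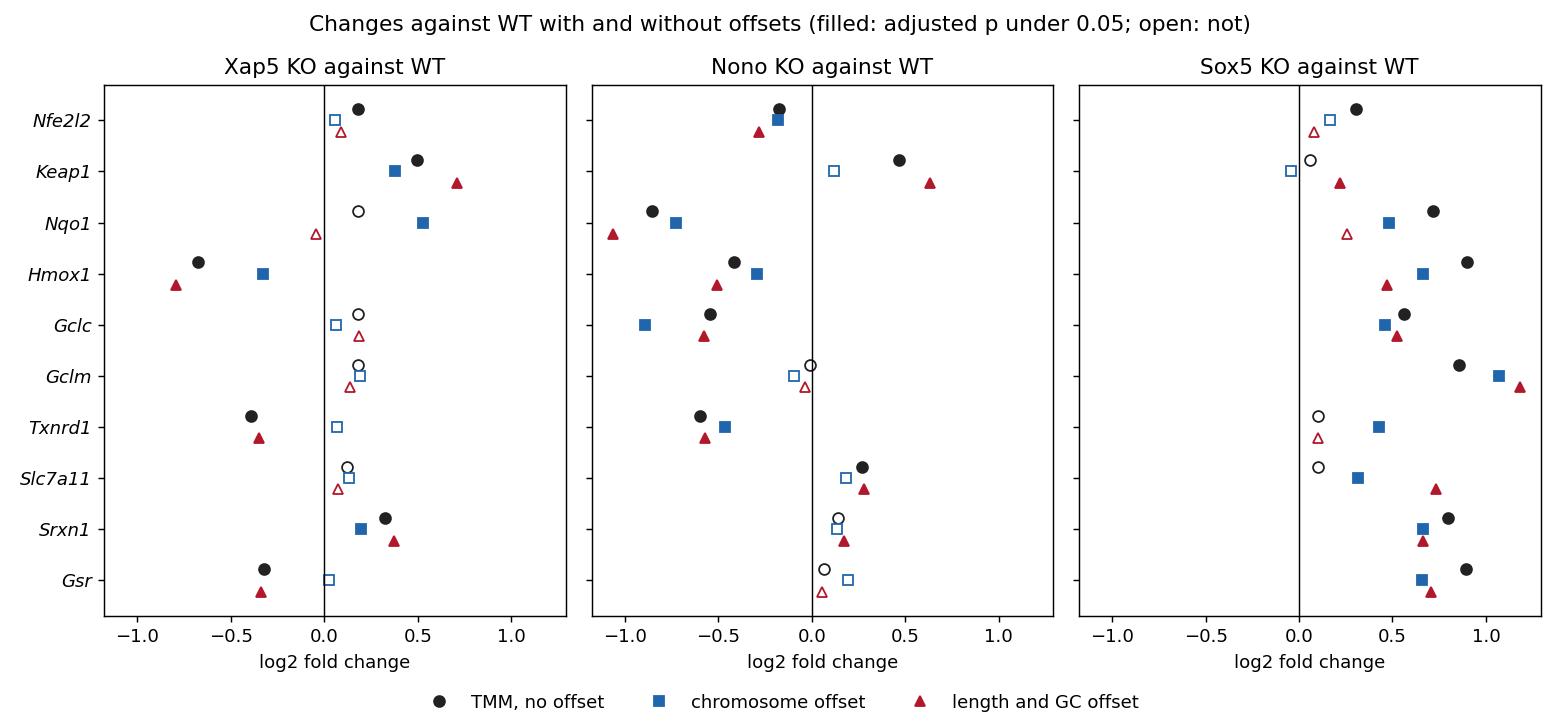
Log2 fold change of each gene against WT in the fit without offsets (circles), with chromosome medians removed (squares) and with the length and GC trend removed (triangles), filled where the adjusted p was under 0.05. In Sox5 KO, Hmox1, Gclc, Gclm, Srxn1 and Gsr are filled and to the right of 0 in all 3 fits, and in Xap5 KO Txnrd1 and Gsr move to about 0 under the chromosome offset.

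For the 3 members with the widest range of group means, the genes with the nearest pattern were found by the Euclidean distance between their 3 log2 fold changes against WT. Nearest to Hmox1 were Snrpg (distance 0.071) and Mlkl (0.172). Nearest to Nqo1 were Ube2a (0.035) and Tmem132a (0.129), and nearest to Gsr were Rps9 (0.042) and Atp6v0e2 (0.061). These distances rest on 4 group means and on all 13332 tested genes.

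The wider pathway was described with 7 lists of 111 genes, of which 109 were tested. In Sox5 KO, 72 of the 109 were higher and 14 lower, with a median log2 fold change of 0.53. That is 78.9% called, where 60.9% of all tested genes were. In Xap5 KO, 38 were higher and 15 lower, with a median of 0.08, and the share of 48.6% was near the 45.5% of all tested genes. In Nono KO 36 were higher and 29 lower, with a median of -0.003, a share of 59.6% against 48.6% of all tested genes. The split in Nono KO depended on scaling, since library totals alone gave 28 higher and 45 lower and moved the median of all genes there to -0.18. With library totals 53.6% of all tested genes were called in Nono KO. With the length and GC trend removed, 64 were higher and 15 lower in Sox5 KO, 34 and 33 in Nono KO, and 41 and 24 in Xap5 KO. Under that offset 55.7%, 47.0% and 48.0% of all tested genes were called in the same order. The shares of all tested genes called without offsets (60.9% in Sox5 KO, 48.6% in Nono KO, 45.5% in Xap5 KO) are the background for each list that follows.

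Partners and regulators of NRF2 (17 tested) were split 6 higher to 6 lower in Sox5 KO, 4 to 4 in Nono KO and 5 to 2 in Xap5 KO. Their shares called were 70.6%, 47.1% and 41.2%, the latter pair no higher than those of all tested genes. Bach2, a repressor that competes at the same DNA element, stood at 12.9 CPM ± 0.431 in WT (SD, n = 2) and fell to 4.34 CPM ± 0.529 in Sox5 KO (SD, n = 3), a log2 fold change of -1.57 (adjusted p = 2.1e-08 by edgeR). It was at -0.19 in Xap5 KO and -0.003 in Nono KO, neither called. Bach1, the related heme-sensing repressor of Hmox1, was named after its values had been seen. It fell by 0.84 in Sox5 KO and by 0.41 in Nono KO on the log2 scale, and its value of -0.13 in Xap5 KO was not called. Gsk3b, a kinase that marks NRF2 for degradation without KEAP1, stood at 121 CPM ± 6.58 in WT (SD, n = 2) and fell to 50.4 CPM ± 3.79 in Sox5 KO (SD, n = 3, log2 fold change -1.26, adjusted p = 1.39e-12 by edgeR). Its value of 0.19 in both Xap5 KO and Nono KO was called by a narrow margin (adjusted p = 0.029 and 0.0266 by edgeR). Both calls were lost with library totals (0.136 and 0.025) and with the chromosome offset (0.097 and -0.076). They were also lost in 3 and 2 of the 11 fits that left out 1 library.

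Among genes of glutathione synthesis and use (30 tested), 21 rose and 0 fell in Sox5 KO, 13 rose and 5 fell in Xap5 KO, and 12 rose and 6 fell in Nono KO. That is 70.0%, 60.0% and 60.0% called, against 60.9%, 45.5% and 48.6% of all tested genes. The medians were 0.75, 0.16 and 0.38, and with genes at 3 counts or fewer in a group set to their bound the median in Xap5 KO was 0.12. Gsta3, a glutathione transferase of the alpha class, had 0 and 5 counts in WT, 142, 61 and 115 in Xap5 KO, 91, 63 and 55 in Nono KO, and 1322, 1101 and 1279 in Sox5 KO. The fitted log2 fold changes of 5.43, 4.83 and 9.31 rest on those few WT counts. They were 4.52, 3.93 and 8.40 without WT replicate 1 and 9.63, 9.05 and 13.52 without WT replicate 2, which leaves WT at 0 so that the value depends on the prior count. Reads of close Gsta paralogs may be shared. Ggt5, a gamma-glutamyltransferase, had 5 and 5 counts in WT, 97, 104 and 104 in Xap5 KO and 380, 347 and 352 in Sox5 KO, with log2 fold changes of 4.40 and 6.57. In Nono KO it had 6, 4 and 12 counts and was not called.

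Thioredoxin and peroxiredoxin genes (16 tested) all changed in Sox5 KO, 12 higher and 4 lower. In Xap5 KO 5 were higher and 3 lower, and in Nono KO 6 were higher and 5 lower. The share in Xap5 KO, 50%, was near the 45.5% of all tested genes, and that in Nono KO was 68.8% against 48.6%. Txnip, which binds and inhibits thioredoxin, fell in every knockout, from 219 CPM ± 1.52 in WT (SD, n = 2) to 111 CPM ± 4.46 in Xap5 KO, 135 CPM ± 7.43 in Nono KO and 51.9 CPM ± 1.21 in Sox5 KO (SD, n = 3 each). Its log2 fold changes were -0.99, -0.70 and -2.08, with adjusted p = 2.56e-11, 4.42e-09 and 1.08e-16 by edgeR. Sesn1, a stress-induced sestrin, also fell in every knockout, by 0.72 in Sox5 KO, 0.49 in Nono KO and 0.94 in Xap5 KO on the log2 scale.

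Genes of NADPH supply (11 tested) were 8 higher and 2 lower in Sox5 KO, 4 higher and 3 lower in Xap5 KO, and 3 higher and 3 lower in Nono KO. The shares called were 90.9%, 63.6% and 54.5%, the last near the 48.6% of all tested genes. G6pdx, the first enzyme of the pentose phosphate pathway, stood at 107 CPM ± 4.45 in WT (SD, n = 2), 166 CPM ± 15.3 in Xap5 KO, 84.7 CPM ± 7.58 in Nono KO and 184 CPM ± 5.91 in Sox5 KO (SD, n = 3 each). It rose by 0.64 and 0.78 in Xap5 KO and Sox5 KO and fell by 0.34 in Nono KO on the log2 scale, all called. The fall in Nono KO was lost with the chromosome offset (-0.004, adjusted p = 0.976 by edgeR). Me1, the cytosolic malic enzyme, rose in all 3 knockouts, by 0.74 in Sox5 KO, 0.99 in Nono KO and 0.52 in Xap5 KO on the log2 scale.

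Heme and iron genes (10 tested) were 9 higher and 0 lower in Sox5 KO, 5 and 0 in Xap5 KO, and 5 and 1 in Nono KO. Of the list 90.0%, 50% and 60.0% were called, and the share in Xap5 KO was near the 45.5% of all tested genes. Slc40a1, ferroportin, the exporter of iron, rose from 8.85 CPM ± 0.8 in WT (SD, n = 2) to 35.1 CPM ± 6.97 in Xap5 KO, 37.1 CPM ± 4.37 in Nono KO and 44.2 CPM ± 3.58 in Sox5 KO (SD, n = 3 each). Its rises were 3.96-fold, 4.19-fold and 4.99-fold, with adjusted p = 9.4e-09, 4.09e-09 and 5.65e-10 by edgeR. Slc48a1, a heme transporter, rose by 0.87, 0.46 and 1.09 on the log2 scale. Hmox1 itself, the enzyme of heme breakdown, was lower than WT in Xap5 KO and Nono KO.

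Detoxification genes for quinones, aldehydes and xenobiotics (20 tested) were 11 higher and 2 lower in Sox5 KO, 3 and 2 in Xap5 KO, and 4 and 8 in Nono KO. The share in Sox5 KO, 65.0%, was near the 60.9% of all tested genes, that in Xap5 KO, 25.0%, was below 45.5%, and that in Nono KO was 60.0% against 48.6%. Ephx1, microsomal epoxide hydrolase, rose 1.92-fold in Xap5 KO, 2.92-fold in Nono KO and 2.70-fold in Sox5 KO (adjusted p = 1.04e-05, 7.09e-08 and 8.09e-08 by edgeR). Aldh1a1, a retinaldehyde dehydrogenase, stood at 0.706 CPM ± 0.157 in WT (SD, n = 2), 3.38 CPM ± 1.98 in Xap5 KO, 19.6 CPM ± 1.36 in Nono KO and 15.9 CPM ± 0.722 in Sox5 KO (SD, n = 3 each), and rose in all 3 knockouts. The rise in Xap5 KO (log2 fold change 2.25, adjusted p = 0.0123 by edgeR) lost its call in 2 of the fits that left out 1 library, where it ranged from 1.92 to 2.65.

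All 5 genes of superoxide and peroxide removal rose in Sox5 KO, against 3 higher and 0 lower in Xap5 KO and 2 higher and 2 lower in Nono KO. With 5 genes, these are shares of 100%, 60.0% and 80.0%, beside 60.9%, 45.5% and 48.6% of all tested genes. Sod3, the extracellular superoxide dismutase, rose from 2.05 CPM ± 0.113 in WT (SD, n = 2) to 38.2 CPM ± 3.11 in Xap5 KO, 21.7 CPM ± 2.03 in Nono KO and 71.8 CPM ± 1.98 in Sox5 KO (SD, n = 3 each). These rises were 18.6-fold, 10.6-fold and 34.9-fold, with adjusted p = 1.64e-16, 4.36e-15 and 1.32e-17 by edgeR. Sod2, the mitochondrial enzyme, rose by 0.90, 0.52 and 0.60 on the log2 scale.

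**Figure D4:**
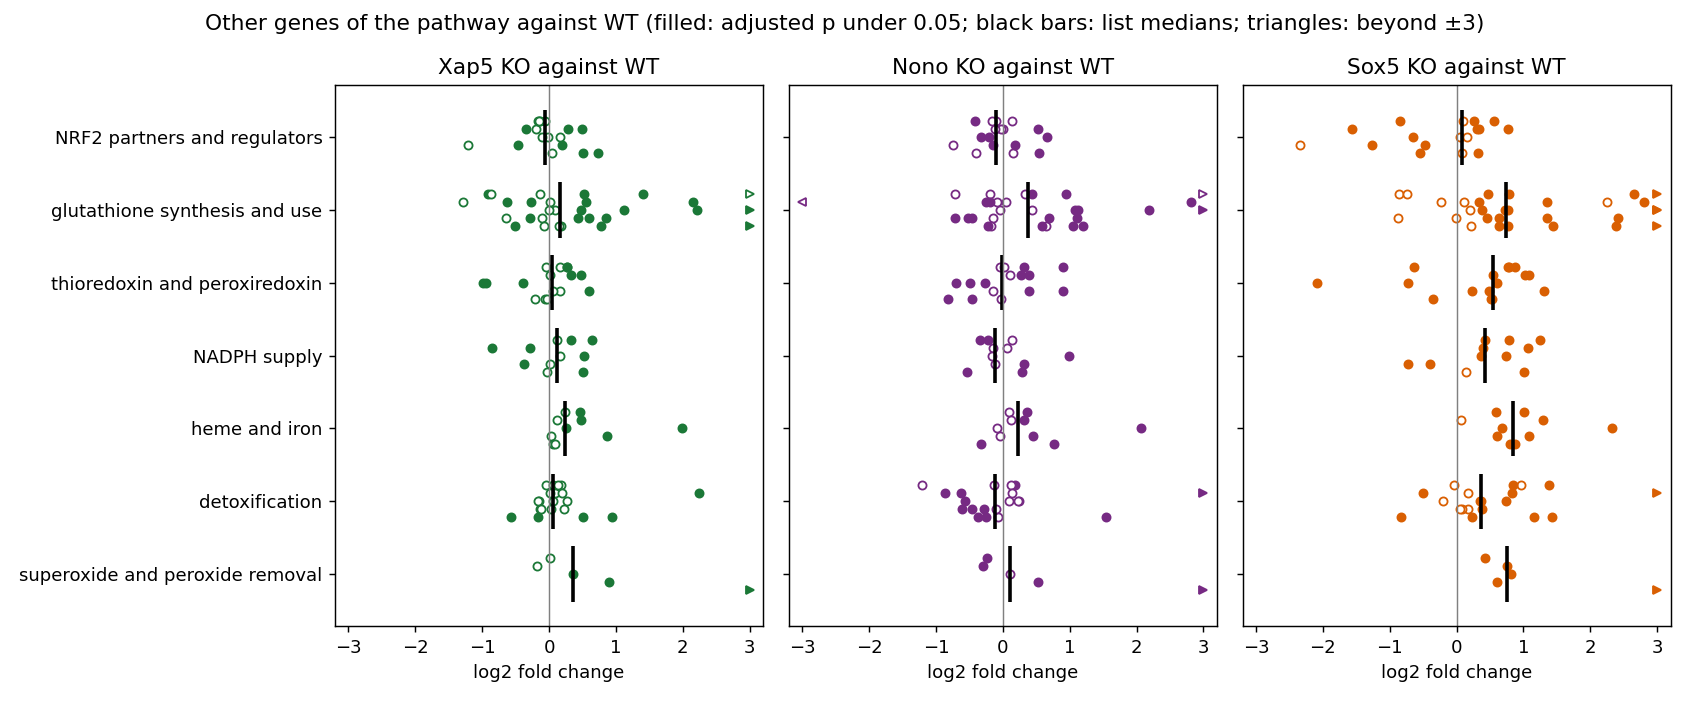
Log2 fold change against WT of every tested gene in the 7 lists of the wider pathway, filled where the adjusted p was under 0.05, with black bars for list medians and triangles for values beyond 3 in either direction. In Sox5 KO the bars lie at 0.36 to 0.84 for every list but the partners and regulators, whose bar is at 0.08.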

How the data were processed

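Bulk RNA-seq of 11 libraries was read from a single table of estimated counts per gene that the authors deposited as whole numbers, 1 column per library with no scaling, per the file headers. HISAT2 2.1.0, StringTie 1.3.3b, DESeq2 1.12.4 and the build GRCm39 are named in the submitters' processing notes. The annotation and the use of strand are not given in the sources used here. The values were taken as estimated counts because 3302 of them were 2 and only 857 were 1, and rounding changed nothing.

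A joint model with 1 mean per genotype gave all 6 comparisons (edgeR 4.0.16, R 4.3.3), using TMM scaling, edgeR's expression filter (count 10, total 15), robust dispersions, the quasi-likelihood test and Benjamini-Hochberg adjustment over 13332 genes. The SE is the log2 fold change over the root of the F statistic. CPM uses TMM-scaled totals. The fit was also run on simulated counts in which few genes changed and no chromosome or length class shifted. That run does not cover changes as wide as those seen here. The members and lists were chosen with earlier results of these data known. All members were named, and from each other list the 2 called genes of at least 1 CPM with the largest mean absolute log2 fold change against WT. Chromosomes, exon and transcript lengths and overlaps came from GENCODE M21 (GRCm38), which differs from the build of the files, so gene coordinates are printed only for the RefSeq windows of GRCm38.p6. Alternatives were RLE factors, library totals, other filters, DESeq2 1.42.0, pairwise fits, a replicate block, leaving out each library, a 2-fold threshold and the offsets for chromosome and for length with GC. Replicates were taken as the labels number them.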

Additional observations from a re-analysis of the deposited data

How the results depend on the processing

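Requiring a change of at least 2-fold reduced the called members to 0 in each knockout against WT, to 1 in Xap5 KO against Nono KO, 2 in Xap5 KO against Sox5 KO and 3 in Nono KO against Sox5 KO, and the called genes of the wider pathway to 29 in Sox5 KO, 12 in Nono KO and 9 in Xap5 KO. The share of all tested genes at this threshold was not counted, so these counts cannot be set against a background. The other alternatives run on all libraries kept the total of called members and of called pathway genes within 1.5 times, but not each direction. Pathway genes lower than WT numbered 24 in Xap5 KO with the length and GC offset, against 15, and 45 in Nono KO with library totals, against 29. With the chromosome offset, members lower in Xap5 KO went from 3 to 1 and members higher in Nono KO from 2 to 0. Leaving out 1 library gave 7 called members in each fit for Sox5 KO, 5 to 8 for Nono KO and 4 to 7 for Xap5 KO. Without 1 knockout library, the share of all tested genes called was 56.6% to 62.0% in Sox5 KO. It was 44.9% to 49.8% in Nono KO and 40.7% to 46.3% in Xap5 KO. Without 1 WT library this share was lower in each knockout, so the counts of called members are not comparable across fits. The split in Nono KO was 1 higher and 5 lower with library totals and 3 higher and 4 lower with DESeq2. Of all tested genes, 53.6% and 46.0% were called there.

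The replicate numbers were not taken as pairing the libraries, since the labels name nothing shared and no correlation of the deviations of same-numbered libraries was over 0.1 (-0.0226 to 0.0465, median 0.0082, against a median of -0.00395 for different numbers). As a hint the other way from the data, in 22 of 30 comparisons of a library with another genotype the best match had its own number. With the replicate block, the called members numbered 7 in Sox5 KO, 6 in Nono KO and 6 in Xap5 KO, and Gclm had a value of 0.002 in Nono KO. Under the block 59.3%, 47.6% and 44.4% of all tested genes were called in these knockouts. The calls lost under the block were those of Nfe2l2 in Nono KO (-0.139, adjusted p = 0.105 by edgeR) and Gsk3b in Xap5 KO and Nono KO (0.159 each, adjusted p = 0.0651 and 0.063).

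Direction turned only for values that were not called, except as named for the offsets. With library totals, values against WT were -0.056 for Keap1, -0.011 for Txnrd1 and -0.013 for Slc7a11 in Sox5 KO, and -0.025 for Srxn1 and -0.098 for Gsr in Nono KO. Gclm in Nono KO was at 0.005 with RLE factors, 0.002 with at least 10 counts in every library, 0.014 in the pairwise fit and 0.004 with DESeq2. Bach2 in Nono KO was at 0.011 with RLE factors and with DESeq2, 0.002 with no filter, 0.007 with at least 10 counts in every library, 0.019 in the pairwise fit and 0.104 with the length and GC offset.

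Under the chromosome offset, the called falls of Txnrd1 and Gsr in Xap5 KO turned to 0.07 and 0.024, and the called difference of Nqo1 between Xap5 KO and Sox5 KO to 0.05, none of them called. Keap1 in Sox5 KO was at -0.042, Gsk3b in Nono KO, which had been called, at -0.076, and Slc7a11 at -0.184 in Xap5 KO and -0.134 in Nono KO against Sox5 KO. Under the length and GC offset, Slc7a11 was at -0.658 and -0.456 in these comparisons and called, Nqo1 in Xap5 KO against WT at -0.044, and Nfe2l2 in Xap5 KO against Sox5 KO at 0.011. What these offsets remove was not tested for its cause.

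Over the fits that left out 1 library, ranges that crossed 0 were -0.04 to 0.071 for Keap1 in Xap5 KO against Nono KO, -0.003 to 0.37 for Gclm in Xap5 KO, -0.177 to 0.196 for Gclm in Nono KO, -0.03 to 0.051 for Slc7a11 in Xap5 KO against Sox5 KO, -0.034 to 0.189 for Gsr in Nono KO and -0.06 to 0.096 for Bach2 in Nono KO. With 2 WT libraries, leaving out 1 assumes that the other varies like the remaining groups. Depth did not limit the members, whose lowest count was 367.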

Other observations

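Slc7a11 is known as a target of ATF4, the factor of the integrated stress response, as well as of NRF2, so a list of 15 ATF4 genes was read beside it. In Nono KO 14 were higher and 0 lower, in Sox5 KO 14 were higher and 0 lower, and in Xap5 KO 10 were higher and 2 lower, with median log2 fold changes of 1.71, 1.38 and 0.93. These are 93.3%, 93.3% and 80.0% called, where 48.6%, 60.9% and 45.5% of all tested genes were. Slc7a5, a neutral amino acid transporter, stood at 17.0 CPM ± 0.602 in WT (SD, n = 2), 34.2 CPM ± 0.258 in Xap5 KO, 122 CPM ± 9.76 in Nono KO and 93.7 CPM ± 4.74 in Sox5 KO (SD, n = 3 each). It rose 2.01-fold, 7.15-fold and 5.51-fold. Trib3, a pseudokinase induced by ATF4, rose 2.27-fold, 8.48-fold and 3.82-fold in the same order. Slc7a11 was at 107% of its WT level in Sox5 KO, 120% in Nono KO and 109% in Xap5 KO, and its difference from the list was not tested.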
